A study of Mus musculus with 12 samples.

Results

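The genes described here are 48 cell cycle and DNA replication genes of the mouse, found by their symbols among the 24310 features that the RNA-seq tables list for each library. They comprise 22 genes that act in mitosis, 23 that act in DNA replication or in its onset at the G1/S transition, and 3 D-type cyclins. Their RNA was measured in c-Kit+ cells enriched from the spleens of C57BL/6 mice engrafted with CMM cells, a GFP-tagged model of inv(16) acute myeloid leukemia. The study asked how leukemia cells respond in vivo when STAT3 is blocked while the nucleic acid sensor TLR9 is stimulated.

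Each of the 3 groups had 4 libraries. The CpG-STAT3dODN mice received a decoy oligonucleotide for STAT3 joined to CpG, a TLR9 ligand. The CpG-scrODN mice received the same CpG part joined to a scrambled oligonucleotide, so both oligonucleotide groups carried the TLR9 ligand. The PBS mice received the vehicle. All mice carried the same leukemia, were first treated when about 1% of blood cells were GFP+, had 3 intravenous injections every other day, and gave their spleens 1 day after the last. The labels do not say whether libraries of a group came from separate mice, so p-values here measure only the spread between these libraries, which may be technical.

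The labels and the tables name the groups differently in all 12 libraries. Libraries labelled CpG-STAT3dODN carry the header SCR, those labelled CpG-scrODN the header PBS, and those labelled PBS the header DEC. Groups below follow the labels, and each direction given below holds for the labelled groups only.

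Libraries held an estimated 31340000 to 36210000 reads, a range of 1.16-fold, so 1 RPKM stood for at least 31.3 reads per kilobase of transcript. Kit, the receptor used for the enrichment, was present in all libraries, at 25.7 to 51.1 RPKM in CpG-STAT3dODN, 28.3 to 40.5 RPKM in CpG-scrODN and 10.5 to 37.8 RPKM in PBS libraries. Its difference was 0.84 ± 0.34 (SE, log2 scale) for CpG-STAT3dODN against PBS and 0.75 ± 0.34 for CpG-scrODN against PBS (limma adjusted p = 0.415 and 0.319). The 14 myeloid leukemia and progenitor markers, Kit among them, summed to 576 to 741 RPKM in CpG-STAT3dODN, 513 to 638 RPKM in CpG-scrODN and 620 to 819 RPKM in PBS libraries, and none was at 0 throughout a group. Of these 14, 8 lay below 0 with a median of -0.24 for CpG-STAT3dODN against PBS. There limma called 0, with 7 lower and 2 higher at an unadjusted p under 0.05. In the comparison of CpG-scrODN with PBS, 10 lay below 0 with a median of -0.33. There limma called 4 lower and 0 higher, against 4.04% and 0.11% of all tested features. At an unadjusted p under 0.05 by limma, 6 were lower and 3 higher. RNA of other cells was also present: B cell markers summed to 50.4 to 137 RPKM in CpG-STAT3dODN, 26.8 to 48.5 RPKM in CpG-scrODN and 243 to 780 RPKM in PBS libraries. Replicate 4 of CpG-STAT3dODN and replicate 4 of PBS stood apart in the immediate-early gene Fos, at 5.91 and 12.9 RPKM, against 486 to 1156 RPKM in the other libraries.

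In a dividing cell, the origin recognition complex, CDC6 and CDT1 load the MCM helicase onto origins in G1, and cyclin E with its kinase then starts replication as CDC45 and the GINS complex join the helicase. E2F factors, released from the retinoblastoma protein, transcribe most of this machinery, while genes of mitosis are transcribed later, through the MuvB complex with B-MYB and FOXM1, which reads an element called the CHR. Both programs are active in leukemic progenitors that are dividing, and the share of dividing cells was not measured here.

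Promoter windows of 37 members, from 250 bases before to 50 bases after the start, were in RefSeq's table for GRCm38.p6. The CHR, TTTGAA on either strand, stood in 13 of 17 mitosis promoters (76.5%) and 3 of 19 replication promoters (15.8%), against 18.1% of all 27025 promoters and 11.7% of the 8317 promoters of genes tested here. An E2F core, TTCCCGC or TTGGCGC on either strand, stood in 3 of 17 mitosis promoters (17.6%) and 9 of 19 replication promoters (47.4%), against 6.93% of all promoters and 12.9% of those of tested genes. CCAAT, the box bound by NF-Y, stood on either strand in 16 of 17 mitosis promoters (94.1%) and 13 of 19 replication promoters (68.4%), against 37.9% and 39.3%. TTGGCGC shares bases with a reversed CCAAT where it is preceded by A. The window of Ccnd3 was the only one of a D cyclin in the table and held none of the 3 motifs. These matches are letters in a window and were not tested as binding sites.

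The stretches below run from 120 bases before to 20 bases after the start, with the motifs in capitals, and show where the motifs lie in the members of highest level that hold a CHR (mitosis) or an E2F core (replication) in that stretch. Ube2c (chr2:164769809-164769948, plus strand), Top2a (chr11:99024170-99024309, minus strand), Mki67 (chr7:135716360-135716499, minus strand) and Cdc20 (chr4:118437324-118437463, minus strand) represent mitosis. Mcm6 (chr1:128359686-128359825, minus strand), Rrm1 (chr7:102441575-102441714, plus strand) and E2f8 (chr7:48881577-48881716, minus strand) represent replication.
Ube2c: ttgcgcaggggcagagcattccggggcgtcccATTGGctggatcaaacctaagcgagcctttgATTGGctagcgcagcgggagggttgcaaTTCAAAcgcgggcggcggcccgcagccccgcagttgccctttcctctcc
Top2a: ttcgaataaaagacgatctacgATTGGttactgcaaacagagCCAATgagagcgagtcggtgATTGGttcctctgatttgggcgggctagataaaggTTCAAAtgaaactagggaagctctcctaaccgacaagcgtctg
Mki67: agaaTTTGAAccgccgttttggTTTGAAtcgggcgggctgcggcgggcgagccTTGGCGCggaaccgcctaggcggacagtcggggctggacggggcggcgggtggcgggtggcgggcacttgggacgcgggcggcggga
Cdc20: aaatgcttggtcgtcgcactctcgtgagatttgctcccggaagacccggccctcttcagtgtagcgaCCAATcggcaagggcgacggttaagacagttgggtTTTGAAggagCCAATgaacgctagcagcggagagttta
Mcm6: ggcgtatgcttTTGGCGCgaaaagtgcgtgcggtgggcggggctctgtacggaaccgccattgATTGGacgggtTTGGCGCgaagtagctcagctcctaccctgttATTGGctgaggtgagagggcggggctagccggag
Rrm1: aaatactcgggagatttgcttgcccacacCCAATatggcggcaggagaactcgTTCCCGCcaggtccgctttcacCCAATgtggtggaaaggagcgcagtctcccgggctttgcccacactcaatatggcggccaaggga
E2f8: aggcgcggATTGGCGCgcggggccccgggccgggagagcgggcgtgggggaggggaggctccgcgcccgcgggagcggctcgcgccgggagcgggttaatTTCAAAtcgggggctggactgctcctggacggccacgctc
The CHR began 29 bases before the start in Ube2c, 23 in Top2a and 18 in Cdc20, each with a CCAAT box further upstream. Mki67 had it at 116 and 98 bases before the start used here. Mcm6 had E2F cores at 109 and 46 bases, and Rrm1 at 67 bases, with no CHR in either stretch. E2f8, a replication member by its role, held an E2F core at 111 bases and a CHR at 20 bases. In Top2a, Mki67 and E2f8 the gene begins upstream of the start used, at chr11:99024199, chr7:135716450 and chr7:48882073. Distances in these genes therefore depend on the start chosen.

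Levels of the members spanned a wide range (RPKM, which is scaled by transcript length, so levels can be set beside each other). Pcna, the sliding clamp of replication, had the highest mean over the 12 libraries, 208 RPKM. It was followed by the helicase genes Mcm7 (97.0 RPKM), Mcm3 (90.7 RPKM), Mcm2 (85.2 RPKM), Mcm5 (83.1 RPKM) and Mcm6 (81.1 RPKM). The highest mitosis genes were Ube2c (81.1 RPKM), Cenpa (75.9 RPKM) and Top2a (70.7 RPKM). At the low end stood Ccne2 (4.78 RPKM), Cenpf (3.29 RPKM) and Ccnd1 (0.668 RPKM), and the ranges of most neighbours in this order overlapped. Pcna, Ccnb1, Ccnb2, Tyms and Ccnd3 have annotated pseudogenes, and how shared reads were assigned is not given in the sources used here, which leaves their levels uncertain to that extent.

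**Figure D1:**
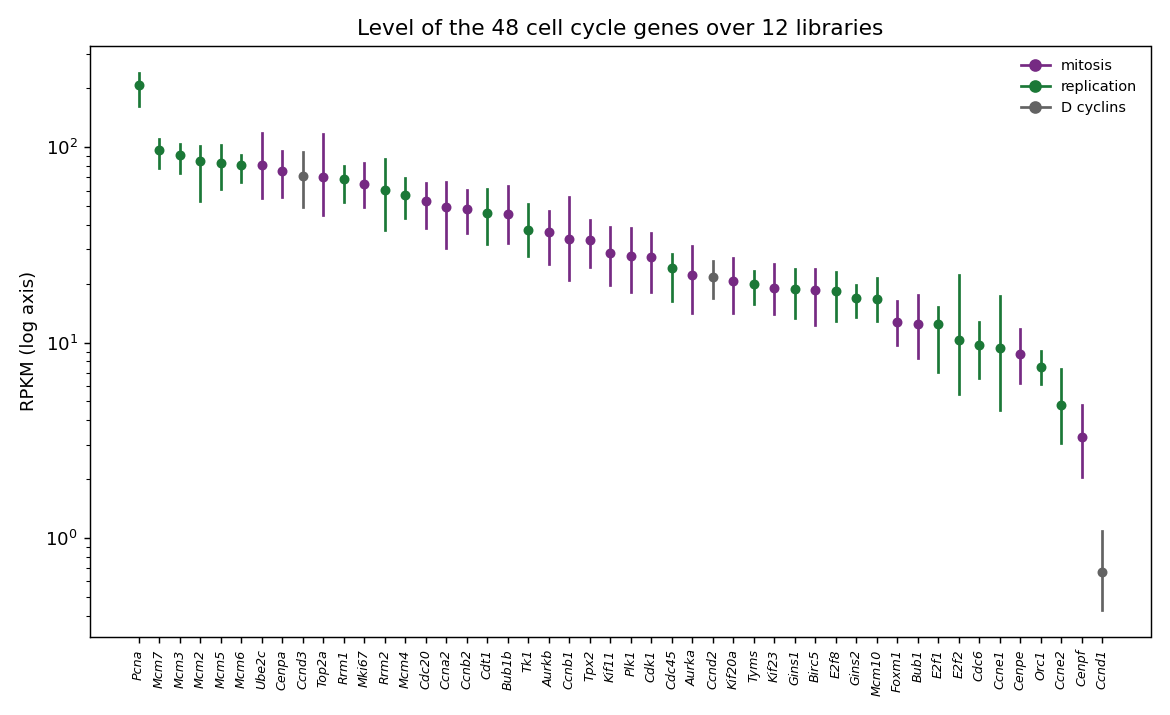
Mean RPKM (points, log axis) and range over the 12 libraries (lines) of each of the 48 genes, ordered by mean and coloured by class. Pcna leads at 208 RPKM, the Mcm genes and Ube2c follow, and Ccnd1 is last at 0.668 RPKM.

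Differences were tested with limma on log2(RPKM + 1) across the 10886 features that reached 1 RPKM in at least 4 libraries, which included 47 of the 48 members. Ccnd1, at 0.428 to 1.09 RPKM, was the member that failed this minimum. No member passed an adjusted p of 0.05 in any comparison. For CpG-STAT3dODN against PBS, 2 members had an unadjusted p under 0.05, both lower. For CpG-scrODN against PBS there were 9, all lower, and for CpG-STAT3dODN against CpG-scrODN there were 0. Over all tested features, the adjusted threshold was passed by 0.0276% as higher and 1.83% as lower for CpG-STAT3dODN against PBS. For CpG-scrODN against PBS it was passed by 0.11% as higher and 4.04% as lower, in counts 12 and 440, a split that became 75 higher and 318 lower after quantile normalization. For CpG-STAT3dODN against CpG-scrODN it was passed by 0% as higher and 0% as lower. The unadjusted threshold was passed by 2.7% of features as higher and 6.7% as lower for CpG-STAT3dODN against PBS, 4.75% and 10.9% for CpG-scrODN against PBS, and 2.14% and 0.57% for CpG-STAT3dODN against CpG-scrODN. The members' confidence intervals had a median half-width of 0.35 on the log2 scale. Differences smaller than that were mostly not detectable with these libraries. These intervals are not adjusted for the number of features tested, so 0.35 is not the limit for a call. Larger differences were also left uncalled for CpG-scrODN against PBS, such as -0.94 in E2f2 and -0.53 in Rrm2 (limma adjusted p = 0.10 and 0.207). The lack of calls therefore does not exclude differences above 0.35.

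The 22 mitosis genes were lower on average in both oligonucleotide groups than in PBS libraries, by less than the test could call. All 22 differences lay below 0 for CpG-STAT3dODN against PBS, with a median of -0.29 and a range of -0.37 to -0.21. All 22 also lay below 0 for CpG-scrODN against PBS, with a median of -0.29 and a range of -0.46 for Plk1 to -0.11 for Tpx2. The median over all tested features was -0.01 for the first of these comparisons and -0.05 for the second, with 53.7% and 59.9% of features below 0. The mitosis medians were -0.27 and -0.25 after quantile normalization and -0.25 and -0.22 after scaling by size factors, in the same order. All 22 stayed below 0 in each case. Both comparisons share the PBS libraries, so they are not independent of each other. The 22 genes also moved together between libraries of a group, so their signs are not 22 separate observations. The lowest limma adjusted p among mitosis genes was 0.352 for CpG-STAT3dODN against PBS and 0.226 for CpG-scrODN against PBS. In bulk RNA, fewer dividing cells and less of each RNA per dividing cell cannot be told apart.

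The mitotic cyclins and their kinase set the pace of entry into mitosis. Ccnb1, cyclin B1, had 29.7, 20.8, 34.8 and 42.4 RPKM in CpG-STAT3dODN libraries, 23.9, 32.0, 30.6 and 29.4 RPKM in CpG-scrODN libraries, and 43.2, 39.0, 26.5 and 55.3 RPKM in PBS libraries. Replicate 3 of PBS was within the range of both oligonucleotide groups, while its other libraries were above most of theirs, and the groups overlapped. The difference was -0.35 ± 0.23 (SE) for CpG-STAT3dODN against PBS and -0.45 ± 0.23 for CpG-scrODN against PBS (limma adjusted p = 0.837 and 0.386). The first value was -0.17 without replicate 2 of CpG-STAT3dODN, -0.19 without replicate 4 of PBS and -0.54 without replicate 3 of PBS, and the second was -0.29 without replicate 4 of PBS. Cdk1, the kinase that cyclins A and B activate, ran at 18.1 to 30.6 RPKM in CpG-STAT3dODN, 20.6 to 26.9 RPKM in CpG-scrODN and 24.0 to 36.2 RPKM in PBS libraries. Ccna2, cyclin A2, and Ccnb2, cyclin B2, also overlapped between groups, though in Ccnb2 the lowest PBS library was replicate 4, at 44.1 RPKM. Their differences were -0.37 and -0.22 for CpG-STAT3dODN against PBS and -0.35 and -0.13 for CpG-scrODN against PBS.

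Among the mitotic kinases, Plk1, which drives entry into and progress through mitosis, had 27.9, 19.0, 30.5 and 25.3 RPKM in CpG-STAT3dODN libraries, 21.8, 27.0, 29.0 and 18.2 RPKM in CpG-scrODN libraries, and 36.0, 38.4, 22.9 and 36.7 RPKM in PBS libraries. PBS replicates 1, 2 and 4 exceeded every library of the oligonucleotide groups, and PBS replicate 3 lay inside their range. The difference was -0.37 ± 0.20 (SE) for CpG-STAT3dODN against PBS and -0.46 ± 0.20 for CpG-scrODN against PBS (limma adjusted p = 0.690 and 0.283), and the first of these was -0.23 without replicate 2 of CpG-STAT3dODN. Aurka, the spindle pole kinase, Aurkb, the kinase of the chromosomal passenger complex, and the checkpoint kinases Bub1 and Bub1b had differences of -0.31 to -0.21 for CpG-STAT3dODN against PBS, and of -0.44 to -0.13 for CpG-scrODN against PBS. Groups overlapped in each of them.

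Cdc20, which activates the anaphase-promoting complex, averaged 48.3 ± 7.6 RPKM in CpG-STAT3dODN, 50.9 ± 7.0 RPKM in CpG-scrODN and 59.1 ± 7.4 RPKM in PBS libraries (SD, n = 4 each). Ube2c, the ubiquitin-conjugating enzyme of that complex, ran at 55.0 to 92.8 RPKM in CpG-STAT3dODN, 65.2 to 85.3 RPKM in CpG-scrODN and 67.4 to 119 RPKM in PBS libraries. Centromere genes behaved alike: Cenpa, the centromeric histone, differed by -0.25 for CpG-STAT3dODN against PBS and -0.17 for CpG-scrODN against PBS. Cenpe, a kinetochore motor, differed by -0.29 and -0.34, and Cenpf, a kinetochore protein, by -0.32 and -0.41, in the same order of comparisons.

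Kif23, a motor of the central spindle, was the mitosis gene whose groups separated. It had 17.6, 14.0, 19.1 and 20.6 RPKM in CpG-STAT3dODN libraries, 15.9, 17.9, 18.7 and 16.8 RPKM in CpG-scrODN libraries, and 22.6, 20.1, 19.3 and 25.3 RPKM in PBS libraries. All 4 CpG-scrODN libraries were below all 4 PBS libraries, by a margin of less than 1 RPKM, while CpG-STAT3dODN overlapped PBS through replicate 4. Kif23 was 1 of 4 members whose groups did not overlap for CpG-scrODN against PBS, all lower, against 10% of all tested features that did so as lower and 3.83% as higher. For CpG-STAT3dODN against PBS there were 0 such members, against 4.23% of features as lower and 0.818% as higher, and for CpG-STAT3dODN against CpG-scrODN there were also 0, against 0.873% as lower and 3.38% as higher. With 4 of 47 members, the share of separated groups was near that of all features. The difference of Kif23 was -0.28 ± 0.12 (SE) for CpG-STAT3dODN against PBS and -0.31 ± 0.12 for CpG-scrODN against PBS (limma adjusted p = 0.463 and 0.231), and the first was -0.18 without replicate 2 of CpG-STAT3dODN.

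The other spindle genes were Kif11, the motor that separates spindle poles, Kif20a, a motor of cytokinesis, Tpx2, which nucleates spindle microtubules, and Birc5, survivin of the passenger complex. Their differences ran from -0.29 to -0.22 for CpG-STAT3dODN against PBS and from -0.32 to -0.11 for CpG-scrODN against PBS. Mki67, the proliferation marker Ki-67 that coats mitotic chromosomes, had 59.9, 49.2, 68.6 and 57.4 RPKM in CpG-STAT3dODN libraries, 57.1, 65.8, 70.5 and 56.5 RPKM in CpG-scrODN libraries, and 83.5, 68.6, 65.0 and 74.2 RPKM in PBS libraries. It was the mitosis gene with the lowest adjusted p for CpG-STAT3dODN against PBS, at -0.31 ± 0.12 (SE, limma adjusted p = 0.352). Top2a, the topoisomerase that untangles sister chromatids, varied more between libraries, with 63.0, 45.0, 71.4 and 89.6 RPKM in CpG-STAT3dODN, 53.6, 62.9, 64.2 and 61.2 RPKM in CpG-scrODN, and 86.6, 75.2, 58.5 and 117 RPKM in PBS libraries. Replicate 4 was the highest library of both CpG-STAT3dODN and PBS. Foxm1, the factor that activates many mitosis genes, differed by -0.29 for CpG-STAT3dODN against PBS and by -0.24 for CpG-scrODN against PBS.

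CpG-STAT3dODN and CpG-scrODN libraries were not told apart by any mitosis gene. Of the 22 differences, 12 lay above 0 and 10 below, with a median of 0.02 and a range of -0.16 for Bub1 to 0.18 for Aurka, where 40% of all tested features lay below 0. The median ran from -0.07 without replicate 3 of CpG-STAT3dODN to 0.15 without its replicate 2, and the number below 0 from 3 without replicate 2 of CpG-STAT3dODN to 18 without its replicate 4. After quantile normalization or scaling by size factors 14 of the 22 lay below 0. With all 3 libraries numbered 4 left out, a choice made after the data were seen, 20 of the 22 lay below 0, with a median of -0.07. The 95% intervals reached from -0.59 to 0.64, and the lowest limma adjusted p was 0.960. A difference of up to that size in either direction is therefore within what these libraries allow.

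**Figure D2:**
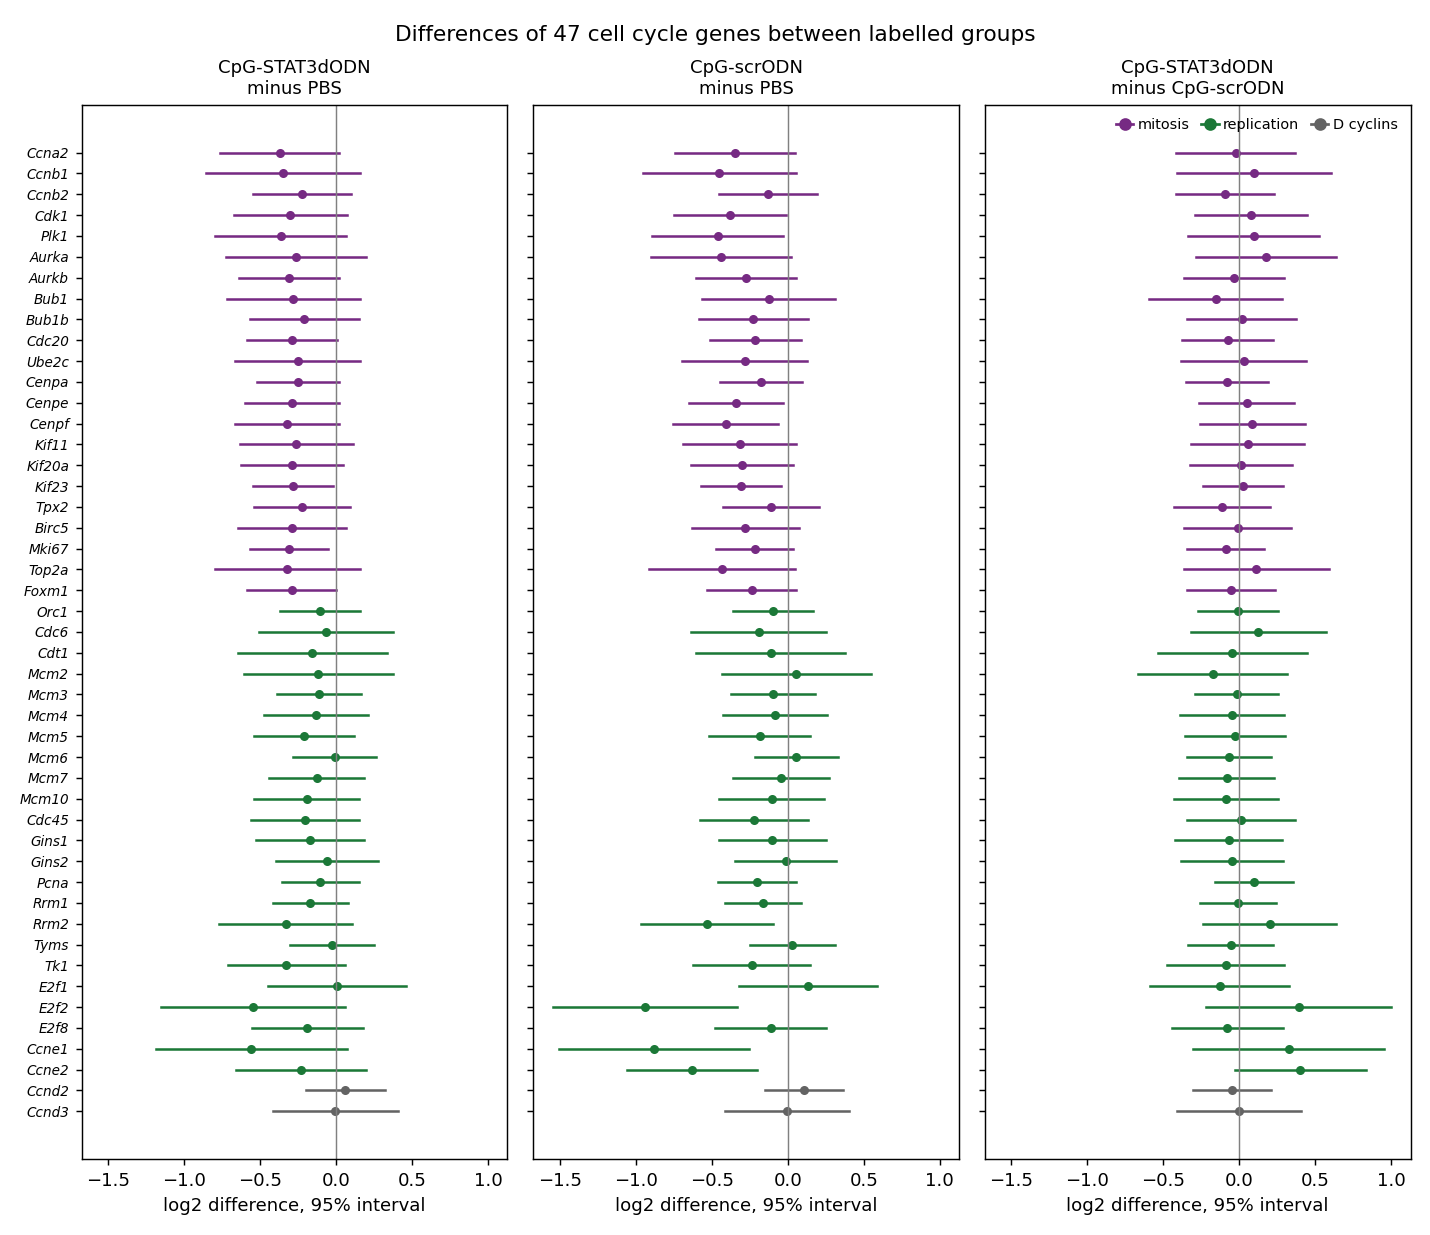
Difference in log2(RPKM + 1) of each of the 47 tested genes (points) with its 95% confidence interval from limma (lines), for CpG-STAT3dODN minus PBS, CpG-scrODN minus PBS and CpG-STAT3dODN minus CpG-scrODN. All 22 mitosis points lie below 0 in both comparisons with PBS, and E2f2, Ccne1 and Ccne2 lie lowest for CpG-scrODN minus PBS.

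The 23 replication genes fell into a large set of helicase and origin genes with small differences and a few G1/S regulators with larger ones. For CpG-STAT3dODN against PBS, 22 of 23 differences lay below 0, with a median of -0.16 and a range of -0.56 for Ccne1 to 0.00 for E2f1, and 0 had an unadjusted p under 0.05. For CpG-scrODN against PBS, 19 of 23 lay below 0, with a median of -0.11 and a range of -0.94 for E2f2 to 0.13 for E2f1. In that comparison 4 genes had an unadjusted p under 0.05 (E2f2, Ccne1, Ccne2 and Rrm2), and the lowest limma adjusted p was 0.10. The number below 0 for CpG-scrODN against PBS was 17 of 23 after quantile normalization and after scaling by size factors, with a median of -0.04 after size factors. These medians moved by over 1.5 times with single libraries left out. In the comparison of CpG-STAT3dODN with PBS the median ran from -0.24 without replicate 3 of CpG-STAT3dODN to -0.06 without its replicate 2, with -0.08 without its replicate 4, -0.08 without replicate 1 of PBS and -0.10 without replicate 2 of PBS. In that of CpG-scrODN with PBS it ran from -0.20 without replicate 4 of PBS to -0.02 without replicate 4 of CpG-scrODN, with -0.18 without replicate 3 of CpG-scrODN, -0.05 without replicate 1 of PBS and -0.07 without replicate 2 of PBS.

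The groups overlapped in all 9 origin licensing genes. These genes (Orc1, Cdc6, Cdt1 and 6 Mcm genes) had medians of -0.12 for CpG-STAT3dODN against PBS and -0.09 for CpG-scrODN against PBS, and none had an unadjusted p under 0.05. Mcm2, a subunit of the helicase, had 96.5, 73.7, 97.1 and 53.2 RPKM in CpG-STAT3dODN libraries, 86.6, 100.5, 100.2 and 68.6 RPKM in CpG-scrODN libraries, and 101, 99.0, 88.5 and 57.5 RPKM in PBS libraries. Cdt1, the loading factor of the helicase, had 52.0, 40.2, 50.7 and 32.0 RPKM in CpG-STAT3dODN libraries, 44.0, 50.8, 53.3 and 32.3 RPKM in CpG-scrODN libraries, and 56.3, 61.2, 47.6 and 32.1 RPKM in PBS libraries. In both genes the lowest library of every group was replicate 4. The differences of Mcm2 were -0.12 ± 0.22 (SE) for CpG-STAT3dODN against PBS and 0.06 ± 0.22 for CpG-scrODN against PBS, and those of Cdt1 were -0.16 ± 0.22 and -0.11 ± 0.22. Mcm2 ran from -0.30 to 0.06 for CpG-STAT3dODN against PBS and from -0.13 to 0.17 for CpG-scrODN against PBS with single libraries left out, and Cdt1 from -0.35 to -0.02 and from -0.30 to 0.04, each lowest without replicate 4 of PBS and highest without replicate 4 of the oligonucleotide group.

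Cdc6, which recruits the helicase together with Cdt1, ran at 7.35 to 12 RPKM in CpG-STAT3dODN, 6.59 to 10.4 RPKM in CpG-scrODN and 7.24 to 12.7 RPKM in PBS libraries. Orc1, the largest subunit of the origin recognition complex, ran at 6.51 to 7.98 RPKM, 6.14 to 8.33 RPKM and 6.54 to 9.05 RPKM in the same order of groups. The other helicase subunits Mcm3, Mcm4, Mcm5, Mcm6 and Mcm7 differed by -0.21 to -0.01 for CpG-STAT3dODN against PBS and by -0.18 to 0.06 for CpG-scrODN against PBS. Genes of origin firing were alike: Mcm10, Cdc45, Gins1 and Gins2, which turn the loaded helicase into an active fork, differed by -0.21 to -0.06 and by -0.22 to -0.01 in these comparisons. Pcna differed by -0.10 ± 0.12 (SE) for CpG-STAT3dODN against PBS and by -0.20 ± 0.12 for CpG-scrODN against PBS.

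Among the genes of nucleotide supply, Rrm2, the regulated subunit of ribonucleotide reductase, had the largest difference for CpG-scrODN against PBS. It had 58.3, 39.7, 70.6 and 64.3 RPKM in CpG-STAT3dODN libraries, 47.8, 60.1, 55.2 and 37.9 RPKM in CpG-scrODN libraries, and 87.1, 76.9, 55.0 and 73.0 RPKM in PBS libraries. PBS replicate 3 lay within the range of the CpG-scrODN libraries and the other PBS libraries above it. Rrm2 differed by -0.33 ± 0.20 (SE) for CpG-STAT3dODN against PBS and by -0.53 ± 0.20 for CpG-scrODN against PBS (limma adjusted p = 0.767 and 0.207), and the first of these was -0.16 without replicate 2 of CpG-STAT3dODN. Rrm1, the large subunit of the same enzyme, differed by -0.17 and -0.16, Tyms, thymidylate synthase, by -0.03 and 0.03, and Tk1, thymidine kinase, by -0.33 and -0.24, each with the CpG-STAT3dODN comparison first.

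In the comparison of CpG-scrODN with PBS, the largest differences among all members were in E2f2 and the E cyclins. E2f2, an activating E2F factor, had 7.11, 5.46, 12.4 and 13.7 RPKM in CpG-STAT3dODN libraries, 7.32, 7.11, 6.22 and 6.18 RPKM in CpG-scrODN libraries, and 22.3, 13.4, 9.37 and 12.5 RPKM in PBS libraries. The CpG-scrODN libraries were all below the PBS libraries, while the CpG-STAT3dODN libraries spanned both. E2f2 differed by -0.94 ± 0.28 (SE) for CpG-scrODN against PBS (limma adjusted p = 0.10) and by -0.55 ± 0.28 for CpG-STAT3dODN against PBS (limma adjusted p = 0.628). Without replicate 1 of PBS, its highest library, these values were -0.72 and -0.33, and the second was also -0.33 without replicate 2 of CpG-STAT3dODN. The other E2F members had smaller differences: E2f1, also an activator, differed by 0.00 for CpG-STAT3dODN against PBS and 0.13 for CpG-scrODN against PBS, and E2f8, a repressor of the family, by -0.19 and -0.11.

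Ccne1, cyclin E1, had 6.82, 4.51, 10.2 and 13.4 RPKM in CpG-STAT3dODN libraries, 6.20, 6.78, 7.12 and 5.22 RPKM in CpG-scrODN libraries, and 14.6, 12.2, 7.64 and 17.3 RPKM in PBS libraries. Ccne2, cyclin E2, had 4.06, 3.24, 5.56 and 7.18 RPKM in CpG-STAT3dODN libraries, 3.06, 4.0, 3.46 and 3.17 RPKM in CpG-scrODN libraries, and 6.36, 5.74, 4.27 and 7.30 RPKM in PBS libraries. In both genes CpG-scrODN libraries lay in a narrow band below all PBS libraries, and CpG-STAT3dODN libraries ran from that band, or in Ccne1 from below it, up into the PBS range. For CpG-scrODN against PBS, Ccne1 differed by -0.88 ± 0.29 (SE, limma adjusted p = 0.138) and Ccne2 by -0.63 ± 0.20 (limma adjusted p = 0.118). Ccne2 passed the threshold when replicate 4 of CpG-STAT3dODN was left out of the shared fit, with the same difference of -0.63 and a limma adjusted p of 0.0484. For CpG-STAT3dODN against PBS, Ccne1 differed by -0.56 ± 0.29 and Ccne2 by -0.23 ± 0.20 (limma adjusted p = 0.640 and 0.952), and without replicate 2 of CpG-STAT3dODN these were -0.31 and -0.08. The value of Ccne2 was -0.39 without replicate 4 of CpG-STAT3dODN, -0.35 without replicate 3 of PBS and -0.14 without replicate 4 of PBS. For CpG-STAT3dODN against CpG-scrODN, Ccne2 was 0.40 ± 0.20 higher, E2f2 0.39 ± 0.28 and Ccne1 0.32 ± 0.29 (limma adjusted p = 0.960 for each), the highest values of any member in that comparison. Without replicate 4 of CpG-STAT3dODN they were 0.24 for Ccne2, 0.21 for E2f2 and 0.10 for Ccne1, and without its replicate 2 they were 0.56, 0.61 and 0.57. E2f2 was at 0.25 without replicate 3 of CpG-STAT3dODN.

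**Figure D3:**
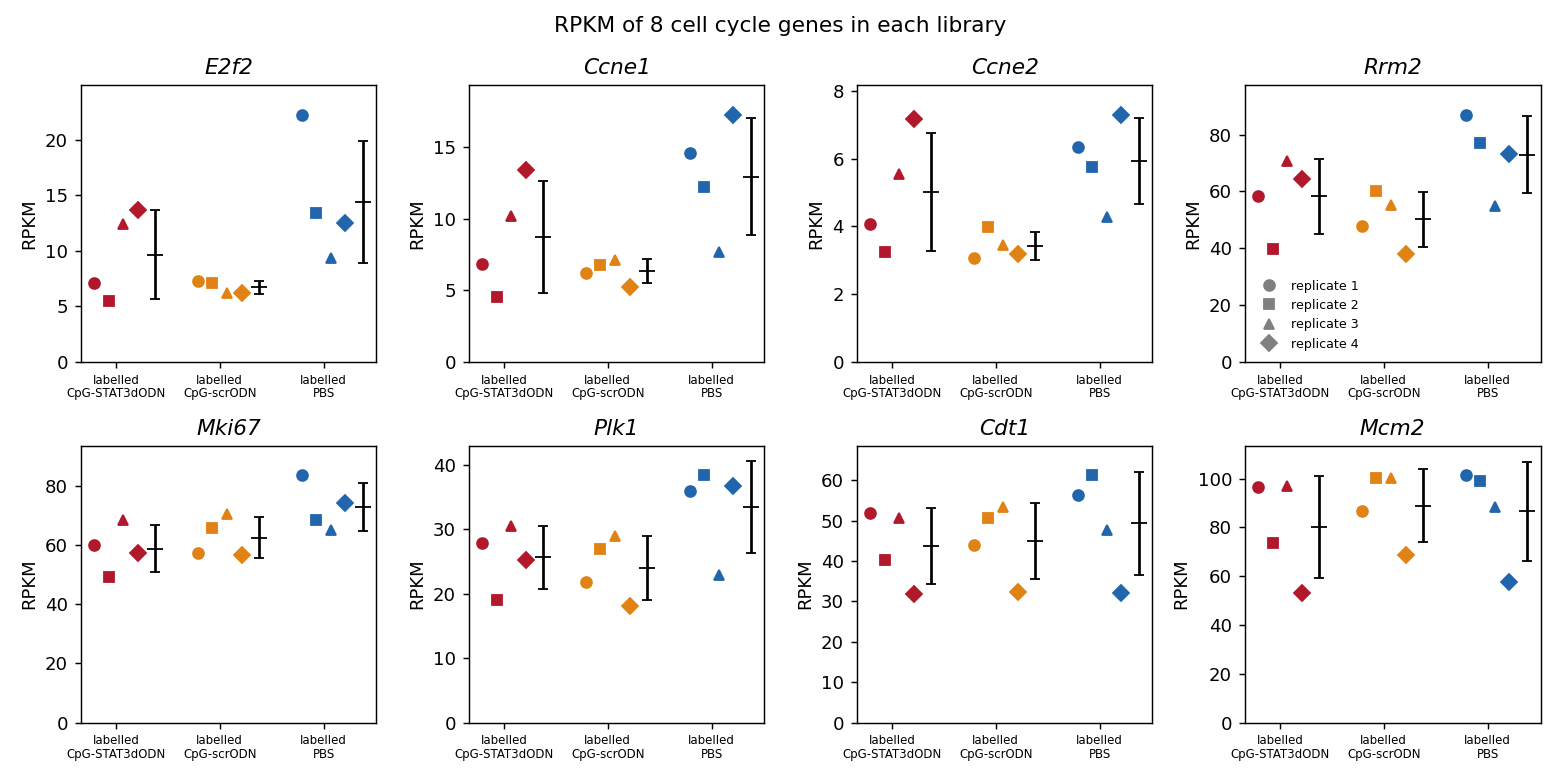
RPKM of 8 genes in each library, by labelled group and with symbols for replicates 1 to 4, with the group mean and SD (bars, n = 4 each). In E2f2, Ccne1 and Ccne2 all CpG-scrODN libraries lie below all PBS libraries, and in Cdt1 and Mcm2 replicate 4 is the lowest library of every group.

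Apart from E2f2, Ccne1 and Ccne2, the replication genes had differences between CpG-STAT3dODN and CpG-scrODN of -0.17 for Mcm2 to 0.20 for Rrm2. Of all 23, 7 lay above 0 and 16 below, with a median of -0.04, which ran from -0.12 to 0.03 as single libraries of these groups were left out. Their 95% intervals reached from -0.66 to 1.00.

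The D cyclins, which couple growth factor signals to the release of E2F, had differences close to 0. Ccnd3, the main D cyclin here, had 81.2, 77.0, 77.4 and 49.6 RPKM in CpG-STAT3dODN libraries, 64.5, 76.9, 73.1 and 66.3 RPKM in CpG-scrODN libraries, and 74.4, 94.2, 68.1 and 51.1 RPKM in PBS libraries. Ccnd2 had 23.2, 23.2, 22.6 and 18.4 RPKM in CpG-STAT3dODN libraries, 22.3, 22.1, 21.9 and 23.6 RPKM in CpG-scrODN libraries, and 26.0, 20.1, 20.9 and 17.0 RPKM in PBS libraries. Replicate 4 of CpG-STAT3dODN and of PBS was the lowest library of its group in both genes. The differences of Ccnd3 were -0.01 for CpG-STAT3dODN against PBS, -0.01 for CpG-scrODN against PBS and 0.00 for CpG-STAT3dODN against CpG-scrODN, and those of Ccnd2 were 0.06, 0.11 and -0.05. Their intervals lay between -0.41 and 0.41.

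Much of the variation of the members ran between libraries of a group. The mean log2(RPKM + 1) of the mitosis genes was 4.84, 4.40, 5.02 and 4.89 in CpG-STAT3dODN libraries, 4.63, 4.88, 4.95 and 4.67 in CpG-scrODN libraries, and 5.25, 5.11, 4.77 and 5.18 in PBS libraries. That of the replication genes was 5.0, 4.61, 5.13 and 4.82 in CpG-STAT3dODN libraries, 4.82, 5.01, 5.02 and 4.63 in CpG-scrODN libraries, and 5.28, 5.20, 4.95 and 4.85 in PBS libraries. Group means of the mitosis class were 4.79 ± 0.27 in CpG-STAT3dODN, 4.78 ± 0.16 in CpG-scrODN and 5.08 ± 0.21 in PBS libraries (SD, n = 4 each), and of the replication class 4.89 ± 0.23, 4.87 ± 0.19 and 5.07 ± 0.20. The steps from PBS to either oligonucleotide group were thus of about the size of the spread within groups, and the means of CpG-STAT3dODN and CpG-scrODN lay much closer together than that. The median standard deviation within groups was 0.24 for mitosis genes and 0.24 for replication genes, against 0.19 over all tested features.

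**Figure D4:**
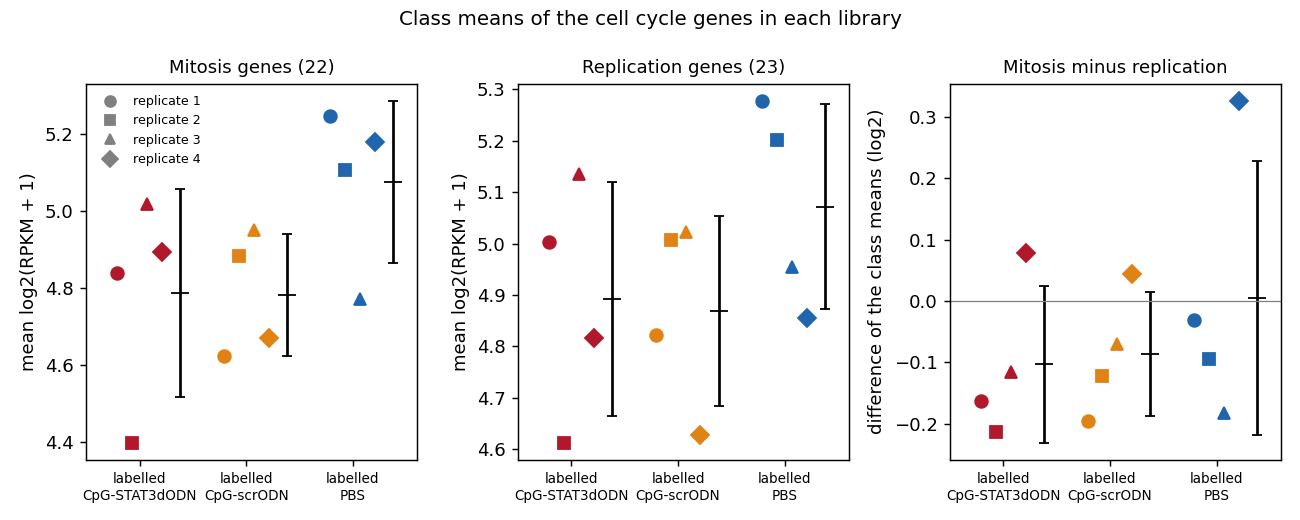
Mean log2(RPKM + 1) of the mitosis and of the replication genes, and the difference of the 2 means, in each library by labelled group, with the group mean and SD (bars, n = 4 each). Replicate 2 of CpG-STAT3dODN is lowest for mitosis (4.40), replicate 3 of PBS (4.77) lies inside the oligonucleotide groups, and replicate 4 has the highest difference in every group.

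Some libraries were lowest or highest in many genes of a class. Replicate 2 of CpG-STAT3dODN was the lowest of the 12 libraries in 21 of 22 mitosis genes and in 7 of 23 replication genes. Replicate 3 of PBS was the lowest of its group in 21 of 22 mitosis genes, and replicate 1 of PBS was the highest of the 12 libraries in 10 mitosis and 12 replication genes. The shares over all tested features are not given here for these libraries. The counts therefore do not tell a shift of these classes from one of the whole library. Without replicate 3 of PBS the mitosis median was -0.39 for CpG-STAT3dODN against PBS and -0.40 for CpG-scrODN against PBS, and without replicate 2 of CpG-STAT3dODN it was -0.16 for CpG-STAT3dODN against PBS. All 22 differences were still below 0 in each of these cases. Leaving out at least 1 single library moved the difference by over 1.5 times in 20 of 22 mitosis and 22 of 23 replication genes for CpG-STAT3dODN against PBS, and turned its sign in 0 and 7 of them. The same counts for CpG-scrODN against PBS were 9 mitosis and 18 replication genes moved, with the sign turned in 0 and 8.

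Mitosis genes stood higher relative to replication genes in the libraries numbered 4 than in the other libraries of their group. The mitosis mean minus the replication mean was -0.16, -0.21, -0.12 and 0.08 in CpG-STAT3dODN libraries, -0.20, -0.12, -0.07 and 0.04 in CpG-scrODN libraries, and -0.03, -0.09, -0.18 and 0.33 in PBS libraries. The last value, that of replicate 4, was the highest of each group. Cdc6, Cdt1, Mcm2 and Mcm4 had lower levels in all 3 libraries numbered 4 than in any of the other 9, which makes 4 of 23 replication genes (17.4%) and 0 of 22 mitosis genes, against 5.77% of all tested features. Cdc6, Cdt1, Mcm2, Mcm4, Mcm6, Mcm7, Tk1 and E2f1 had replicate 4 as the lowest library of every group (34.8% of replication genes), against 0 mitosis genes and 13.2% of all tested features. The labels do not say what the number stands for, and this contrast was chosen after its values were seen. With all 3 libraries numbered 4 left out, 23 of 23 replication genes lay below 0 for CpG-STAT3dODN against PBS and 22 of 23 for CpG-scrODN against PBS.

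**Figure D5:**
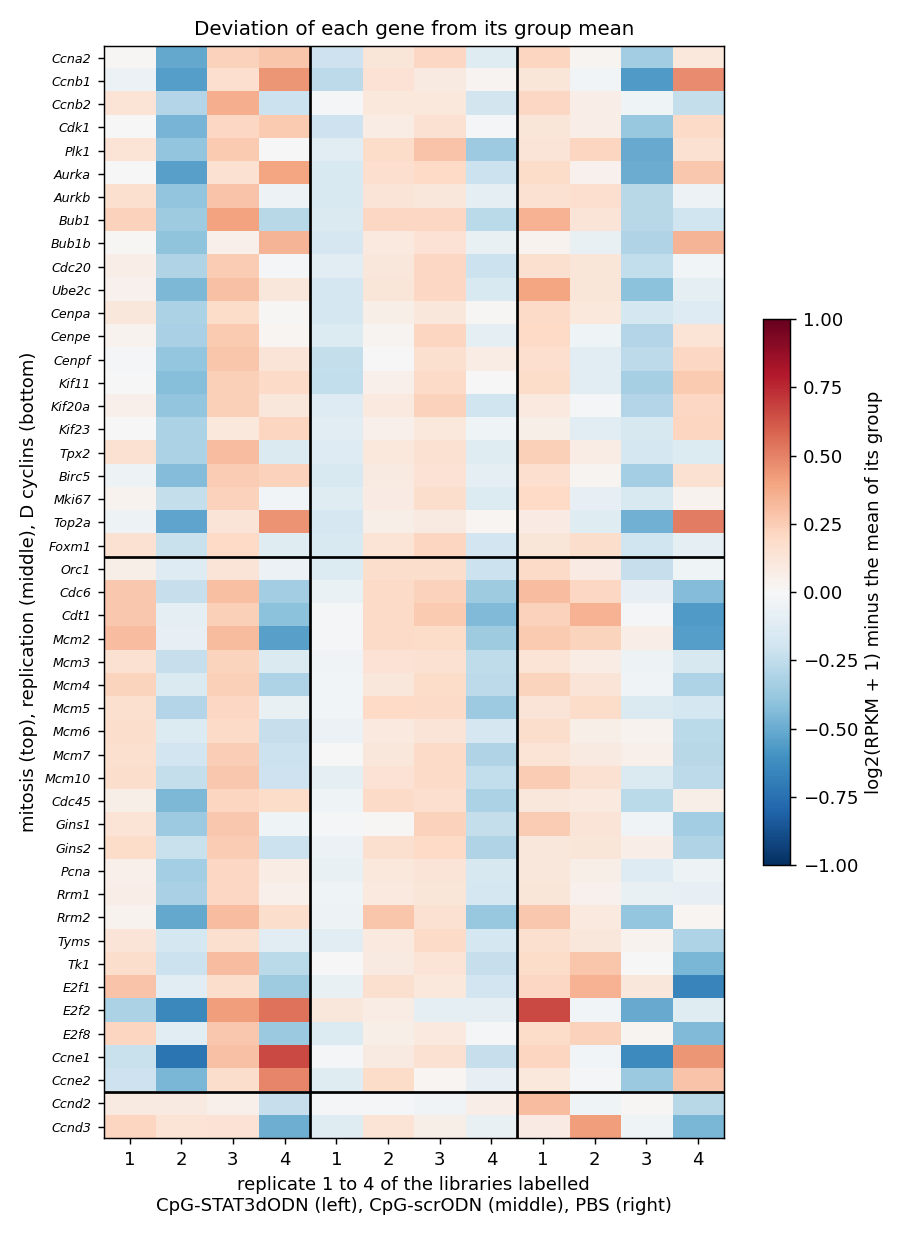
Log2(RPKM + 1) of each tested gene in each library minus the mean of its labelled group (red above, blue below), with the groups from left to right and the classes from top to bottom. Replicate 2 of CpG-STAT3dODN and replicate 3 of PBS are low across mitosis genes, and replicate 4 is low across Cdt1, Mcm2 and other licensing genes in every group.

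Markers of other cells also varied between libraries. The 14 erythroid markers in the tables summed to 470 to 6905 RPKM in CpG-STAT3dODN, 965 to 2494 RPKM in CpG-scrODN and 503 to 15579 RPKM in PBS libraries. No erythroid marker passed the adjusted threshold in either comparison with PBS (0 at an unadjusted p under 0.05 by limma), with medians of -0.29 for CpG-STAT3dODN and -0.69 for CpG-scrODN, and none was at 0 throughout a group. Of 13 tested B cell markers, 11 were lower at an adjusted p under 0.05 for CpG-STAT3dODN against PBS and 13 for CpG-scrODN against PBS. Cd79a, part of the B cell receptor, ran at 7.27 to 30.4 RPKM in CpG-STAT3dODN, 2.35 to 7.80 RPKM in CpG-scrODN and 45.0 to 187 RPKM in PBS libraries. Of 11 T cell markers, 5 passed the minimum for the test, and 3 of these were called lower in each comparison with PBS, with medians of -0.97 for CpG-STAT3dODN and -1.02 for CpG-scrODN. The 10 mature neutrophil markers summed to 1962 to 4470 RPKM in CpG-STAT3dODN, 568 to 2386 RPKM in CpG-scrODN and 1796 to 5514 RPKM in PBS libraries. None of them was called, 0 and 5 were lower at an unadjusted p under 0.05 by limma in the comparisons of CpG-STAT3dODN and of CpG-scrODN with PBS, and the medians were -0.23 and -1.11. Red pulp macrophage markers had medians of -0.62 and -0.30 over 8 tested genes, mast cell markers 0.35 and 0.49 over 5, and megakaryocyte markers 0.45 and 0.67 over 4, in the same order and with 0 called. Among mast cell markers Tpsb2 was at 0 in all CpG-STAT3dODN libraries, and Mcpt4, Tpsb2 and Tpsab1 were at 0 in all CpG-scrODN libraries. Of 20 immediate-early and heat shock genes, 19 lay below 0 for CpG-STAT3dODN against PBS, with a median of -0.57, and 9 for CpG-scrODN against PBS, with a median of 0.28, and 1 was called lower in each. The part of these cells, or of immediate-early and heat shock RNA, in the levels of the members was not tested.

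Genes that work with the members were examined in 10 lists holding 139 genes, of which 135 were tested. In the comparison of CpG-STAT3dODN with PBS, 0 passed the adjusted threshold (limma, with 2 higher and 5 lower at an unadjusted p under 0.05). Of the 135, 108 lay below 0, with a median of -0.11. For CpG-scrODN against PBS, 1 passed as higher and 0 as lower, against 0.11% and 4.04% of all tested features. At an unadjusted p under 0.05 by limma, 2 were higher and 17 lower, against 4.75% and 10.9% of all tested features. In that comparison 103 of 135 lay below 0, with a median of -0.12. For CpG-STAT3dODN against CpG-scrODN, 0 passed (1 at an unadjusted p under 0.05), with 64 above and 71 below 0. Cdkn1a, which encodes the CDK inhibitor p21, was the gene called higher for CpG-scrODN against PBS. It had 52.5, 48.4, 50 and 53.8 RPKM in CpG-scrODN libraries, against 35.3, 47.2, 36.5 and 35.5 RPKM in PBS libraries. All CpG-scrODN libraries were above all PBS libraries, and the difference was 0.41 ± 0.10 (SE, limma adjusted p = 0.0427). In CpG-STAT3dODN libraries Cdkn1a was at 41.8 to 50.1 RPKM, 0.27 ± 0.10 above PBS (limma adjusted p = 0.334).

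The kinetochore and motor lists had the lowest medians of the 10 lists in both comparisons with PBS. For CpG-STAT3dODN against PBS, 13 of 14 kinetochore and spindle checkpoint genes and 14 of 14 motor and cytokinesis genes lay below 0, with medians of -0.20 and -0.25, and for CpG-scrODN against PBS 14 of 14 in both lists, with medians of -0.26 and -0.25. Ndc80 and Nuf2, which bind microtubules at the kinetochore, differed by -0.21 and -0.21 for CpG-STAT3dODN against PBS and by -0.31 and -0.27 for CpG-scrODN against PBS. The motors Kif2c and Kif4 differed by -0.32 and -0.33 for CpG-STAT3dODN against PBS and by -0.35 and -0.30 for CpG-scrODN against PBS. Of 13 condensin and cohesin genes, 11 lay below 0 in both comparisons, among them Smc2 (-0.29 for CpG-STAT3dODN and -0.41 for CpG-scrODN) and Smc4 (-0.21 and -0.22). Of 11 genes of the anaphase-promoting complex and mitotic exit, 7 lay below 0 in both, with Anapc1 at -0.07 for CpG-STAT3dODN and 0.06 for CpG-scrODN, and Anapc2 at 0.02 and 0.01.

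Of 19 replication elongation genes, 18 lay below 0 for CpG-STAT3dODN against PBS and 14 for CpG-scrODN against PBS, with medians of -0.11 and -0.03. Pola1 and Pola2, of the polymerase that starts each DNA strand, differed by -0.01 and -0.04 for CpG-STAT3dODN against PBS and by 0.14 and 0.00 for CpG-scrODN against PBS. Below, each pair of values gives CpG-STAT3dODN against PBS and then CpG-scrODN against PBS. The medians of 13 origin genes were -0.09 and -0.09, with Orc2 at -0.07 and 0.03 and Orc3 at -0.07 and 0.04. Those of 14 nucleotide synthesis genes were -0.09 and -0.06, with Shmt1 at -0.14 and 0.01. Among regulators, the medians were -0.05 and -0.13 over 15 genes of the RB, E2F and DREAM list, with Rb1 at 0.03 and 0.14 and Rbl1 at -0.08 and -0.20. They were 0.00 and 0.00 over 15 CDK and checkpoint kinases, with Cdk2 at 0.04 and -0.04 and Cdk4 at -0.16 and -0.13, and 0.03 and -0.20 over 7 CDK inhibitors, with Cdkn1b at 0.08 and -0.17.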

How the data were processed

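RNA of 12 libraries was measured by RNA-seq. The authors deposited 1 table of RPKM (reads scaled by transcript length and by the mapped reads of the library) per library. TopHat 1.3.1, Partek 6.12.0713 and the mm10 build are named in the submitters' processing notes, without their roles. Groups follow the labels, which the headers of the tables contradict in all 12 libraries.

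Values were taken as log2(RPKM + 1), and 10886 of 24310 features with at least 1 RPKM in at least 4 libraries were fitted with limma 3.58.1 in R 4.3.3, with 3 groups of 4 libraries in 1 fit, an intensity trend and Benjamini-Hochberg adjustment over all features of a comparison. The threshold was an adjusted p of 0.05, and intervals are 95% intervals of the fit. Fold changes on this scale understate those of low genes. Of the low values, 66.4% to 69.9% came out as whole reads (within 0.05 reads), too few to recover counts, so no count test was run, and the depths given are estimates from the spacing of these values. No pair of libraries within a group was identical. In the tables, 27 features carry names turned into dates.

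All 48 members are named, with the first genes of each pathway list, pathway genes past the threshold, and the markers Kit, Cd79a and Fos. A pair of genes that this rule names is not reported here. The members and lists were chosen with earlier results of these data known. Coordinates and promoter sequences are RefSeq's for GRCm38.p6. Alternatives covered the pseudocount, the minimum, scaling, library weights, a replicate block, fits of 2 groups and the loss of each library.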

Additional observations from a re-analysis of the deposited data

Results flagged for a closer look

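Within groups of 4 libraries, 5 of 153 checks (each member in each group, and the class means) had an end library farther from the others than Dixon's 95% critical value allows, where chance marks about 1 in 20 groups. Plk1 was at 22.9 RPKM in replicate 3 of PBS, against 36.0 to 38.4 RPKM in the other PBS libraries. Cdc45 was at 21.7 RPKM in the same library, against 27.4 to 28.6 RPKM. Gins2 was at 13.6 RPKM in replicate 4 of PBS, against 17.9 to 18.6 RPKM in the other PBS libraries. In replicate 4 of CpG-STAT3dODN, Ccnd2 was at 18.4 RPKM, against 22.6 to 23.2 RPKM, and Ccnd3 at 49.6 RPKM, against 77.0 to 81.2 RPKM, in the other CpG-STAT3dODN libraries.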

How the results depend on the processing

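Over 23 settings, 3230 of 3240 recomputed member values kept their side of the threshold and 10 became called. None reversed as a called value, and 210 values that were never called changed sign. For CpG-STAT3dODN against PBS, 202 genes were called in all, 76 with a minimum of 5 RPKM, 1248 with library quality weights, 78 with these 2 groups alone and 96 to 218 with single libraries left out. For CpG-scrODN against PBS, 452 were called in all, 163 with the minimum of 5 RPKM, 1812 with the weights and 281 to 556 with single libraries left out. For CpG-STAT3dODN against CpG-scrODN, 0 were called in all, 607 with the weights and 1 with these 2 groups alone. With the weights, 3 members were called lower for CpG-STAT3dODN against PBS (E2f2, Ccne1 and Tk1) and 5 for CpG-scrODN against PBS (E2f2, Ccne1, Ccne2, Rrm2 and Tk1), but the weights ran from 0.112 to 10.6 and their estimation stopped before it converged. With single libraries left out, 0 to 1 members were called for CpG-scrODN against PBS, the 1 being Ccne2. A term for the libraries numbered 4, an alternative chosen after seeing the data like leaving out all 3 of them, gave 338 calls for CpG-STAT3dODN against PBS and 871 for CpG-scrODN against PBS, with 0 and 1 members called (Ccne2). The cause of these shifts was not tested, other than that fewer features or libraries enter some of the fits. RPKM tables give no counting error, and 4 libraries per group limit what can be told apart.

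The replicate numbers as a whole did not pair the samples: 5 of 12 same-numbered pairs had a correlation of their deviations over 0.1, among them all 3 pairs numbered 4 (0.15, 0.19 and 0.82), the correlations ran from -0.34 to 0.82, and 3 of 12 libraries correlated best with their own number. With the replicate block, 213 genes were called for CpG-STAT3dODN against PBS, 523 for CpG-scrODN against PBS and 0 for CpG-STAT3dODN against CpG-scrODN, with 0 members in each.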
